A study of Mus musculus with 16 samples.

Results

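The trimethylation of histone H3 at lysine 9 (H3K9me3) was compared between small intestinal crypts of WT mice and of mice lacking Smarcad1 in the intestinal epithelium (KO). All 212313 peaks of the H3K9me3 table were taken, each with a value in 3 WT and 3 KO libraries, and they are described by annotated gene, by chromosome and by position relative to the gene. These 6 libraries belong to a series of 16, which also holds H3K9me2 libraries and 1 input library (chromatin without antibody) per genotype and mark. Peaks and H3K9me2 regions number 259378 in all.

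Both genotypes had a C57BL/6 background, and the material was the whole crypt epithelium. KO mice carried Smarcad1 alleles floxed around exons coding for the ATP-binding part, together with a Cre recombinase transgene under the Villin promoter, which is active in intestinal epithelial cells. The floxed allele came from 1 embryonic stem cell clone, and non-epithelial cells in a crypt isolate keep Smarcad1. The ages of the mice behind each library are not given in the sources used here. The study calls the libraries of a genotype biological replicates, and the labels give replicate numbers without naming the animals.

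H3K9me3 is written by methyltransferases such as Setdb1, Suv39h1 and Suv39h2 and read by the HP1 proteins, and it marks silent, compact chromatin. It covers transposon remnants, zinc finger gene clusters and other genes silent in a tissue. KRAB zinc finger proteins bring Setdb1 to DNA through Trim28, and Smarcad1 is an ATP-dependent remodeler that binds Trim28 and has been linked to the maintenance of such chromatin.

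Sequence shared by many of the peaks with less H3K9me3 in KO is shown first. Words of 20 bases were searched on both strands of GRCm38 in all peaks, words frequent in lower peaks were picked on the odd-numbered chromosomes, and the counts given here are from the even-numbered chromosomes, X and Y. The 4 stretches below each lie inside a lower peak of those chromosomes, and capitals mark the word that picked them. Their peaks were taken from the lower peaks of small p that hold the word. The values of these peaks are therefore examples and no test of the words. The words are variants of a related sequence, which line up over part of their length and are not identical there.

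Word 2, chr8:61441368-61441427, plus strand: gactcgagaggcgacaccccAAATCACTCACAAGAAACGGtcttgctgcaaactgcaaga

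Word 2, chr16:29765674-29765733, plus strand: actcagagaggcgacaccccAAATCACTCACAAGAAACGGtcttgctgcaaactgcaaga

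Word 5, chr16:4798093-4798152, plus strand: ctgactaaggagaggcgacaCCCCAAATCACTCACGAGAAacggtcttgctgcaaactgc

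Word 5, chr4:108142522-108142581, minus strand: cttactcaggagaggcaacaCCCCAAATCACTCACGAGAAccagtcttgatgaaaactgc

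The peak around the first stretch, on chromosome 8 with no gene within 5000 bp, had log2 read counts of 7.79, 7.68 and 7.84 in WT and 6.10, 6.55 and 6.36 in KO. Every KO library lay below every WT library, with a mean difference of -1.435 (SE 0.119, limma adjusted p = 2.96e-12). The chromosome 16 peak around the third stretch held 6.98, 6.76 and 7.21 in WT and 5.64, 6.02 and 5.49 in KO. Scp2, which encodes a sterol carrier protein, overlaps the peak around the last stretch, with 6.72, 6.99 and 6.81 in WT and 5.41, 5.96 and 5.61 in KO.

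Over all peaks, 5226 (2.46%) were lower and 536 (0.252%) higher in KO at an adjusted p under 0.05 (limma). Leaving out 1 library gave 3242 lower peaks without WT replicate 1, and 352 higher peaks without either WT replicate 3 or KO replicate 3. With limma without the trend of variance on level, 87 and 16 peaks passed, and 56 of the 94 genes and peaks picked by rule lost their call. Together 2.71% of peaks changed. Every KO library lay below every WT library at 8.21% of all peaks and above at 7.3%. A log2 value of 1 peak depends on its width, so values were compared between genotypes and not between peaks. All values are relative to distributions that the authors matched between libraries, which removes any shift common to all peaks. The median change over all peaks was 0.03. On the other chromosomes, word 2 was held by 38 peaks, of which 20 were lower (52.6%), and word 5 by 63 peaks, of which 34 were lower (54.0%). Of the 107031 peaks there, 1046 held at least 1 of the 522 words picked, and 348 of these were lower (33.3%, against 2.22% of all peaks on these chromosomes). None was higher. Peaks with a word were wider, with a median of 2400 bp against 1350 bp. In the genome, 88 of 107 copies of word 2 (82.2%) and 138 of 160 copies of word 5 (86.2%) lay in a peak. These copies include the odd-numbered chromosomes, where the words were picked from peaks, so the choice of words set part of these shares. Over all chromosomes, with those on which the words were picked, 820 of the 5226 lower peaks (15.7%) held a word, so most lower peaks did not.

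**Figure D1:**
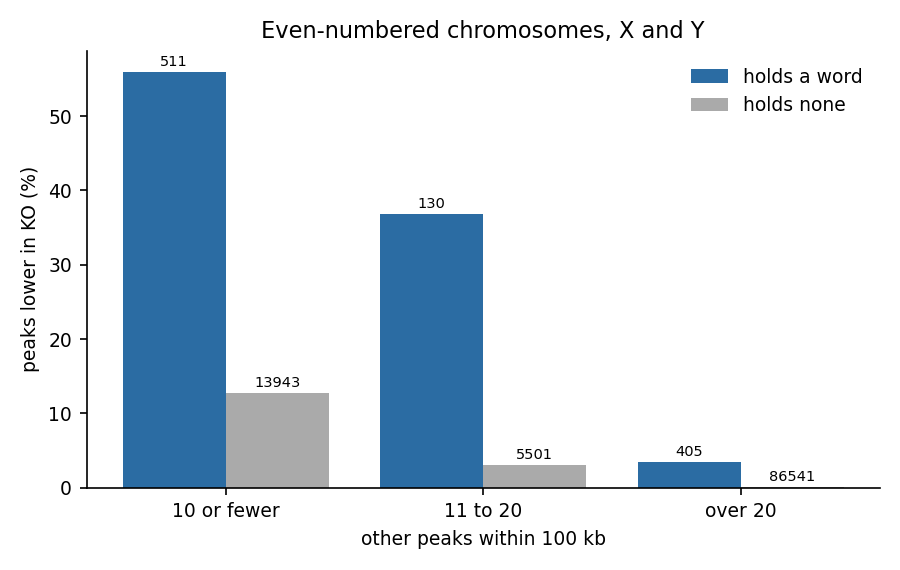
Share of peaks lower in KO (%, y axis) among peaks that hold a word and peaks that hold none, by the number of other peaks within 100 kb (x axis), on the even-numbered chromosomes, X and Y. Numbers above bars are numbers of peaks. With 10 or fewer neighbours, 56.0% of holders and 12.8% of other peaks were lower.

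The deposited table cannot check the deletion itself, since no peak lay inside Smarcad1 (chromosome 6, 65042591 to 65116061) or was annotated to it. The nearest peak, 10541 bp before the gene, was lower in KO, with 5.76, 5.58 and 5.27 in WT and 4.28, 5.06 and 4.66 in KO (limma adjusted p = 0.013). The 10 Mb around the gene held 1517 peaks, and 0.989% of them changed.

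Vil1, the source of the Cre promoter, and Mt1, which encodes a metallothionein, had the 2 largest gains of all peaks. The Vil1 peak held 5.50, 5.58 and 5.37 in WT and 12.34, 11.97 and 12.21 in KO. At Mt1 the values were 2.53, 2.43 and 2.26 in WT and 9.82, 10.37 and 10.37 in KO. KO mice carry the Cre transgene, and the input without antibody was also higher in KO at both peaks, from 296 to 3288 reads at Vil1 and from 40 to 302 at Mt1. These 2 peaks are among the higher ones counted here, and the part of the input in their change was not tested.

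Depth in peaks ranged from 7057940 reads in KO replicate 1 to 11830762 in KO replicate 2. WT replicate 3 lay alone, more than 1 log2 unit below the 5 other libraries, at 105 peaks, against 14 and 16 for the other WT libraries. Of these, 50 lay in the 3 largest gained loci described below and 26 on chromosome 17 from 13192501 to 40050000, where none of the 26 was called. KO replicate 1, the shallowest library, was alone at 120 peaks, 46 of them called lower. Gained loci and named gains are therefore also given without WT replicate 3.

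Peaks just before or after a gene were called lower in a larger share than peaks overlapping a gene or far from one. Of 8188 peaks up to 5000 bp upstream of a gene, 441 (5.39%) were lower in KO, and of 7533 peaks downstream, 409 (5.43%) were lower. The share was 3.54% (2184 of 61764) for peaks overlapping a gene and 1.63% (2192 of 134828) for peaks with no gene. Gains were placed differently. Of the 536 higher peaks, 345 overlapped a gene (0.559% of such peaks), 7 lay upstream (0.0855%), 14 downstream (0.186%) and 170 had no gene (0.126%). Outside the 8 largest gained loci described below, 167 of 330 higher peaks overlapped a gene (50.6%) and 145 had no gene. Without WT replicate 1, the lower counts were 275 upstream, 263 downstream, 1361 overlapping and 1343 with no gene. Without WT replicate 3, 223 higher peaks overlapped a gene. Higher peaks with no gene numbered 94 without KO replicate 1 and 93 without KO replicate 3. Those downstream were 8 without WT replicate 3, KO replicate 1 or KO replicate 2, and those upstream 2 without KO replicate 3.

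The mean log2 value over all upstream peaks was 5.10, 5.06 and 5.08 in WT and 4.99, 5.02 and 5.01 in KO, so the genotypes did not overlap. The difference was -0.08 upstream, -0.07 downstream and 0.01 for peaks with no gene, each with p = 0.1 in a two-sided exact permutation test, the smallest p that 3 against 3 libraries allow. Over peaks overlapping a gene the genotypes overlapped, with a difference of -0.01 (exact permutation p = 0.6). The gap between overlapping peaks and peaks with no gene was 0.08 in WT and 0.06 in KO, which is not beyond the spread between libraries (exact permutation p = 0.2).

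Within genes, 640 of 13147 peaks that touched an exon (4.87%) and 1544 of 48617 that did not (3.18%) were lower. Higher peaks also made up a larger share where an exon was touched, 0.92% against 0.461%. Of the 1226 peaks that covered a transcription start site, 25 were lower (2.04%) and 27 higher (2.2%). The share of lower peaks at start sites was thus near that over all peaks, while the share of higher peaks there was above their 0.252%. Without WT replicate 3, 13 of the start site peaks were higher, and without KO replicate 2, 15.

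The upstream peaks with the smallest p belonged to Klrb1c, which encodes a receptor of natural killer cells, to Pmf1, which encodes a kinetochore protein, and to Ankrd10. The Klrb1c peak lay 2585 bp before the gene and held 7.69, 7.55 and 7.80 in WT and 5.94, 6.40 and 6.04 in KO (limma adjusted p = 1.17e-12). The Pmf1 peak held 7.71, 7.57 and 7.74 in WT against 5.76, 6.52 and 6.25 in KO. The Ankrd10 peak fell by 1.70 on the log2 scale (SE 0.17). In each of these, every KO library lay below every WT library.

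Downstream of genes, the lower peaks of smallest p were at Polm, Crkl and Scd4, of which Scd4 encodes a stearoyl-CoA desaturase. The Scd4 peak, 3742 bp past the gene, held 7.76, 7.96 and 8.25 in WT and 6.76, 6.93 and 6.74 in KO. A peak at Crkl, a gene for a signalling adaptor, fell by 1.14 (SE 0.10, limma adjusted p = 2.03e-11). Both fell in every KO library.

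The widest of the lower peaks named, 19800 bp on chromosome 16 from 21035101, had no gene. Its log2 values were 10.22, 10.24 and 10.37 in WT and 9.02, 9.28 and 9.20 in KO. A peak of 2100 bp on chromosome 7 from 79215301, also without a gene, fell from 6.89, 6.89 and 6.90 to 4.66, 4.95 and 4.92. Both held one of the shared words, and chromosome 7 is among those on which the words were picked.

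The share of lower peaks varied more with how crowded a peak was by other peaks than with its position relative to a gene. Among 7558 peaks with at most 2 other peaks within 100 kb, 1393 were lower (18.4%) and the median change was -0.38. The share fell to 17.4% with 3 to 5 neighbours, 12.6% with 6 to 10 and 4.51% with 11 to 20. It was 0.242% with 21 to 50 neighbours, and among the 112692 peaks with more than 50 it was 0.0133%, with a median change of 0.06. Lower peaks had a median of 4 neighbours, higher peaks 32 and peaks not called 52. Without WT replicate 1, 812 of the peaks with at most 2 neighbours were lower, and without WT replicate 3, 924. The shares without WT replicate 1 were 10.9% with 3 to 5 neighbours, 7.96% with 6 to 10, 0.141% with 21 to 50 and 0.00355% with more than 50. With more than 50 neighbours the share was 0.024% without KO replicate 2. These classes were chosen after the values were seen and are a description.

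The shares also varied with position within the crowding classes. With at most 2 neighbours, 25.3% of downstream, 21% of upstream and 20.1% of overlapping peaks were lower, against 14.8% of peaks with no gene. With 6 to 10 neighbours the shares were 17.5%, 17.1%, 13.9% and 10.9% in the same order. Peaks with no gene had the smallest share of lower peaks in each of the 4 classes with up to 20 neighbours.

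Signal over input moved together with crowding. Each ChIP library was divided by the pooled WT and KO input, both as a share of the reads in peaks. The median input difference (KO minus WT, log2) was 0.103 with at most 2 neighbours and -0.056 with more than 50. In peaks with at most 2 neighbours, the ratio of ChIP to pooled input was 1.33, 1.25 and 1.24 in WT and 0.936, 1.03 and 1.01 in KO. In peaks with more than 50 neighbours it was 0.916, 0.951 and 0.94 in WT and 0.987, 0.975 and 0.975 in KO. This ratio is relative to the average over all peaks, so a value near 1 does not mean that a peak lacked enrichment over background. Isolated peaks stood above that average in each WT library and lower in each KO library, and the part of ChIP efficiency in this difference was not tested. Repeat-masked sequence made up 48.9% of the median lower peak, 34.8% of the median peak not called and 18.1% of the median higher peak, and the median GC content was 42.8%, 39.4% and 43.2%.

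**Figure D2:**
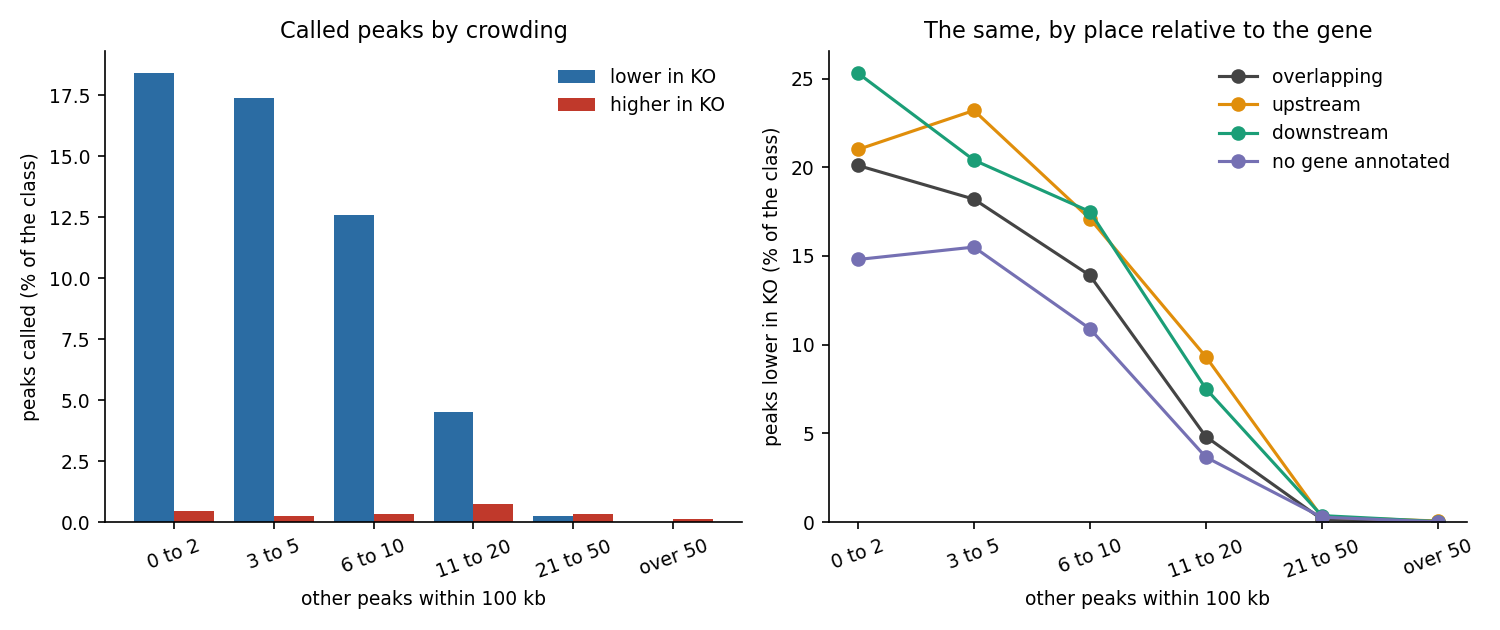
Share of peaks called lower or higher in KO (%, y axis of the left panel) and share called lower by position relative to the gene (%, y axis of the right panel), both by the number of other peaks within 100 kb (x axis). Loss was most frequent in peaks with few neighbours (18.4% lower at 0 to 2) and nearly absent in peaks with more than 50 (0.0133%).

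Every chromosome held lower peaks, from 0.188% of the peaks on Y and 1.5% on chromosome 12 to 4.36% on chromosome 11 and 5.48% on chromosome 19. Chromosomes 19 and 11 also had the most isolated peaks among the autosomes, with 23.4% and 22.1% of their peaks having at most 10 neighbours, against 9.9% on chromosome 12. Among isolated peaks alone, the share of lower peaks was 14.0% to 20.4% on the autosomes. It was 2.08% on X and 1.06% on Y. On X, 72.4% of peaks were isolated, and the mean log2 value was 3.66 to 3.82 over the 6 libraries, against about 5 on the autosomes, so X peaks rested on fewer reads.

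The mean over chromosome 19 was 4.95, 4.88 and 4.90 in WT and 4.81, 4.86 and 4.84 in KO. On chromosome 11 it was 5.04, 4.97 and 4.98 in WT and 4.92, 4.95 and 4.95 in KO. All KO means lay below all WT means on these 2 chromosomes, and above them on chromosomes 6, 8 and 16 by at most 0.03. Each had an exact permutation p = 0.1, the smallest possible, and 0.382 after adjustment over 21 chromosomes. On recovered read counts scaled with TMM, the KO means lay below on 8 chromosomes and above on 0, so the gains on chromosomes 6, 8 and 16 were not seen when values and scaling were changed together.

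Higher peaks were concentrated on few chromosomes. Chromosome 10 held 89, of which 64 lay at Grip1, chromosome 16 held 75, and chromosome 13 held 71, of which 48 lay at Arl15. These chromosomes held 43, 38 and 63 without WT replicate 3, and chromosome 10 held 54 without KO replicate 2. Among 224 windows of 10 Mb with at least 200 peaks, the median window had 2.62% of its peaks changed. The share was highest on chromosome 13 from 110 to 120 Mb (20.7%), where 51 of the 68 changed peaks were gains. The next were chromosome 19 from 0 to 10 Mb (20%, 40 lower and 0 higher), chromosome 16 from 20 to 30 Mb (19.3%, 59 lower and 14 higher) and chromosome 5 from 140 to 150 Mb (18.3%, 57 lower and 0 higher). On chromosome 13 from 90 to 100 Mb, 17.2% changed, with 4 lower peaks at Pde8b, a phosphodiesterase gene.

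**Figure D3:**
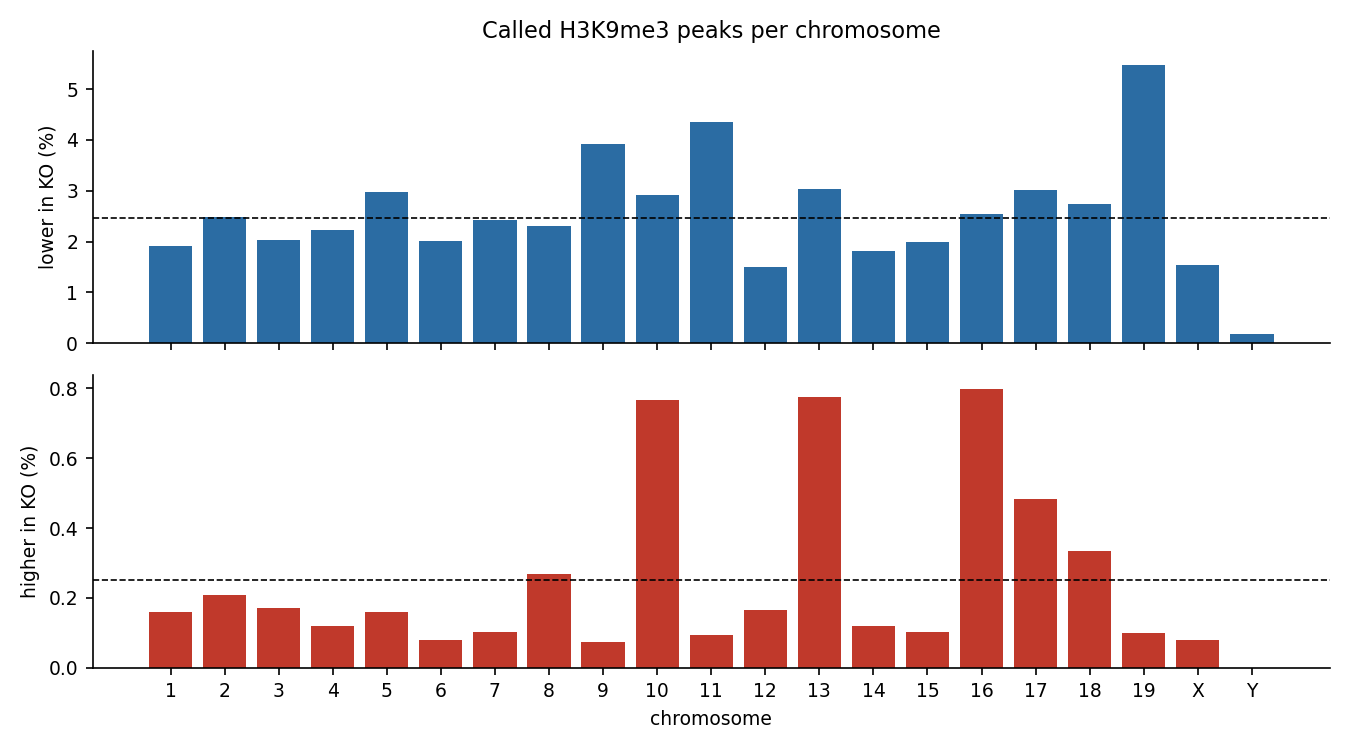
Share of peaks lower or higher in KO (%) on each chromosome. Dashed lines are the shares over all peaks (2.46% lower, 0.252% higher); chromosomes 19 and 11 have the largest shares of lower peaks, and 10, 13 and 16 of higher peaks.

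Losses were scattered, whereas a large share of the gains lay in a few long stretches. Lower peaks no more than 50 kb apart were joined into 3686 loci, of which 2775 (75.3%) were single peaks, and the 8 largest held 119 peaks (2.28%). Higher peaks formed 303 loci, of which 275 were single peaks, but the 8 largest held 206 of the 536 (38.4%). Because peaks were called before they were joined, the changes within a locus are a description.

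The locus with most lower peaks lay on chromosome 16 from 20848501 to 21181050, around the predicted gene Gm9697. There 29 of 44 peaks were lower, and the mean over all 44 was 6.22, 6.03 and 6.13 in WT and 5.16, 5.42 and 5.32 in KO. In a locus of 297.8 kb around Trim24, which encodes a bromodomain protein of the transcription cofactor family of Trim28, 21 of 40 peaks were lower, 6 of them annotated to Trim24 and 11 to no gene. All 40 together had 6.44, 6.48 and 6.48 in WT and 5.78, 6.08 and 6.06 in KO. Without WT replicate 3 there were 12 lower peaks in the Trim24 locus, and without WT replicate 2, 13.

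Zinc finger and retinol enzyme clusters were among the lost loci. The locus on chromosome 9 from 22146751 to 22319100 held Zfp809, Zfp810 and Zfp599, and 14 of its 17 peaks were lower, with 7.05, 6.97 and 6.91 in WT and 6.04, 6.21 and 6.11 in KO. A second zinc finger locus on chromosome 7 held Zfp850, Zfp607a, Zfp974 and Zfp780b, with 10 of 18 peaks lower. On chromosome 10 from 127785301 to 127871550, all 12 peaks were lower, at Rdh16, Rdh16f1, Rdh16f2, Rdh9 and Rdh19, a cluster of retinol and hydroxysteroid dehydrogenase genes. Their mean was 6.17, 5.88 and 6.04 in WT and 4.69, 4.74 and 4.85 in KO.

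Lost loci among the 8 also lay at Cfap53, a cilia gene (13 of 16 peaks), Atf7ip2, a relative of the Setdb1 partner Atf7ip (11 of 16), and Slc22a16, a carnitine transporter gene (9 of 10). No peak in any of these 8 loci was higher. Of these lower peaks, 8 of 13 were annotated to Cfap53, 4 of 11 to Atf7ip2 and 2 of 9 to Slc22a16. Without WT replicate 1, 7 peaks of the Atf7ip2 locus were lower. Without WT replicate 3, the mean changes of the called peaks in them ranged from -0.65 at Trim24 to -1.27 at the Rdh16 cluster.

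The longest gained locus covered 551.9 kb inside Grip1, which encodes a scaffold protein of glutamate receptors, on chromosome 10 from 119465251 to 120017100. Of its 87 peaks, 62 were higher, and the mean of all 87 was 6.12, 6.07 and 5.16 in WT and 6.44, 6.72 and 6.54 in KO. WT replicate 3 was low, and without it 25 peaks were higher and the mean change of the 62 peaks went from 0.95 to 0.63, while 38 peaks were higher without KO replicate 2. At Arl15, a small GTPase gene on chromosome 13, 49 of 53 peaks were higher over 397.8 kb. The means over all 53 were 5.32, 5.10 and 4.32 in WT and 6.49, 6.65 and 6.44 in KO, and 46 peaks were higher without WT replicate 3.

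The gained locus on chromosome 16 from 89472901 to 89878200 ran over Tiam1, an exchange factor gene for Rac, and keratin-associated protein genes. Of its 76 peaks, 39 were higher, with 25 of these at no gene, and 17 were left without WT replicate 3. The mean over all 76 peaks was 5.77, 5.60 and 5.03 in WT and 6.14, 6.14 and 6.14 in KO.

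At Tcf4, which encodes a basic helix-loop-helix factor, all 14 peaks of a locus of 97.35 kb were higher, with 5.49, 5.22 and 4.71 in WT and 6.91, 7.14 and 7.01 in KO. At Fat1, which encodes an atypical cadherin, all 6 were higher, with 6.27, 6.05 and 5.61 in WT and 7.57, 7.83 and 7.61 in KO. These 2 loci kept all their calls without WT replicate 3, with mean changes of 1.67 and 1.51.

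Of the smaller gained loci, Camkmt, a methyltransferase gene for calmodulin, had 14 of 18 peaks higher, Mb21d2 13 of 15 and Dapk1, a death-associated kinase gene, 9 of 21. Without WT replicate 3 these numbers were 11, 11 and 4. The Dapk1 number was 5 without KO replicate 1 and 2 without KO replicate 3. WT replicate 3 was the lowest library in all 8 gained loci, and its part in their size beyond these values was not tested. The input was 0.12 to 0.26 higher in KO over the gained loci and 0.02 to 0.18 higher over the lost ones, on the log2 scale. The median masked share was 14.4% to 21.1% in the gained loci and 36.0% to 62.8% in the lost ones. None of the called peaks in the gained loci held a shared word. Only 2265 of all 212313 peaks held one, and the words were picked for being frequent in lower peaks, so this absence is no separate result. The 330 higher peaks outside the 8 loci were spread over 20 chromosomes, and 145 of them were called without WT replicate 3.

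**Figure D4:**
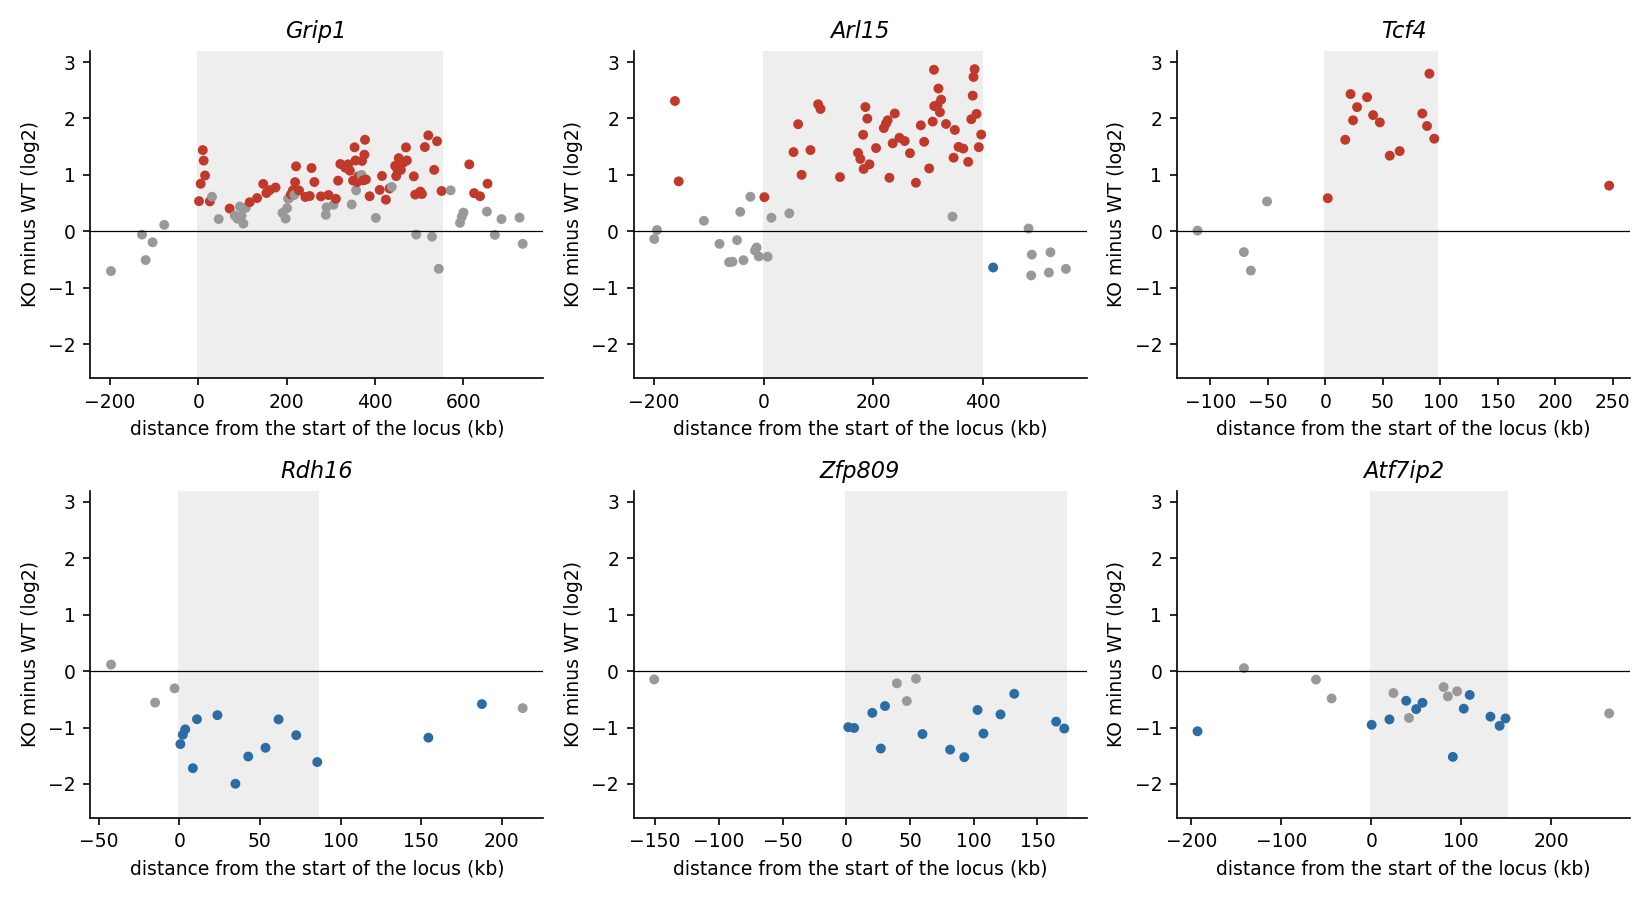
Change in H3K9me3 (log2, KO minus WT, y axis) of each peak against its distance in kb from the start of the locus, for lost and gained loci and 200 kb on either side. The grey band is the locus, blue points are lower peaks, red points higher peaks and grey points peaks not called; in the Tcf4 locus all 14 peaks are higher and in the Rdh16 locus all 12 are lower.

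When the peaks of each gene were averaged, 2413 of 14225 genes (17%) had less H3K9me3 in KO and 69 (0.485%) more (limma, adjusted p under 0.05). The median gene changed by -0.14. On recovered read counts summed per gene, edgeR called 2028 lower and 1412 higher genes and DESeq2 1126 and 758, so the split between directions changed when values, scaling and test were changed together. Of the 2413 lower genes, 1404 had a single peak, 485 had at least 3 and 22 had at least 10. Of the 69 higher genes, 40 had a single peak. The lower count was 1127, 1555 and 1390 without WT replicates 1, 2 and 3, and the higher count was 35, 35, 33 and 37 without WT replicate 2, WT replicate 3, KO replicate 2 and KO replicate 3. A lower peak was held by 2439 genes and a higher peak by 165, and 10 genes held both, such as Camkmt with 2 lower and 14 higher peaks.

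Among genes with at least 3 peaks, Ccdc138, which encodes a coiled-coil protein, had the smallest p among the losses. Its mean was 6.91, 6.95 and 6.78 in WT and 5.71, 5.87 and 5.63 in KO, a difference of -1.14 (SE 0.10, limma adjusted p = 0.00144). Nelfa, which encodes a subunit of the negative elongation factor, had 5.91, 5.79 and 5.73 in WT and 4.48, 4.53 and 4.15 in KO. Pot1b, a telomere-binding protein gene, went from 5.60, 5.69 and 5.64 to 4.53, 4.41 and 4.63. In all 3 genes every KO library lay below every WT library, as the naming rule required.

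Further losses picked by the rule were at Rdh16, Cyp2c65, Afg1l, Methig1 and Mta3, and a shared function was not tested. Rdh16 fell from 6.58, 6.27 and 6.45 to 4.95, 5.23 and 5.22, with all 5 of its peaks lower. Cyp2c65, a cytochrome P450 gene on chromosome 19, held 6.06, 6.01 and 6.11 in WT and 5.34, 5.36 and 5.31 in KO. Afg1l, a mitochondrial ATPase gene, fell by 0.97 and Methig1, which encodes a methyltransferase-like protein, by 1.23. Mta3, a subunit of the NuRD remodeling and deacetylase complex, held 6.31, 6.31 and 6.32 in WT and 5.38, 5.54 and 5.35 in KO.

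Numb, a Notch inhibitor gene, fell by 0.95 and Mllt10, a cofactor gene of the Dot1l methyltransferase, by 0.78. Atf7ip2 had 7.48, 7.33 and 7.51 in WT and 6.72, 6.56 and 6.75 in KO, with all 4 peaks lower. Tnxa, a truncated copy of tenascin XB, changed by -0.75. These 12 genes kept an adjusted p of at most 0.0201 without WT replicate 3 (limma). Tnxa, Methig1, the Rdh16 group and Cyp2c65 have close copies in the genome, so their read counts are less certain.

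Of the gains, Fat1 (1.70, SE 0.17, limma adjusted p = 0.00187), Tcf4 (1.48) and Arl15 (1.70) led. Arl15 held 5.30, 5.07 and 4.24 in WT and 6.55, 6.70 and 6.47 in KO over 50 peaks. E2f7, a repressor of cell cycle genes, rose from 7.10, 6.74 and 6.84 to 7.39, 7.73 and 7.74. Tlr1, a receptor for bacterial lipopeptides, rose from 4.64, 4.55 and 4.57 to 5.28, 5.07 and 5.16. Mb21d2 rose by 1.11.

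Smaller gains were called at Ttn, the titin gene (0.43), Lrrc8b, a volume-regulated channel gene (0.66), Krtap11-1 (0.60), Olfr1201 (0.48), Dapk1 (0.63) and Dst, a cytolinker gene (0.39). These 6 genes passed with all libraries but not without WT replicate 3, where the adjusted p was 0.0532 to 0.0934 (limma). The other 6 named gains passed without it, with an adjusted p of at most 0.0464 (limma).

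**Figure D5:**
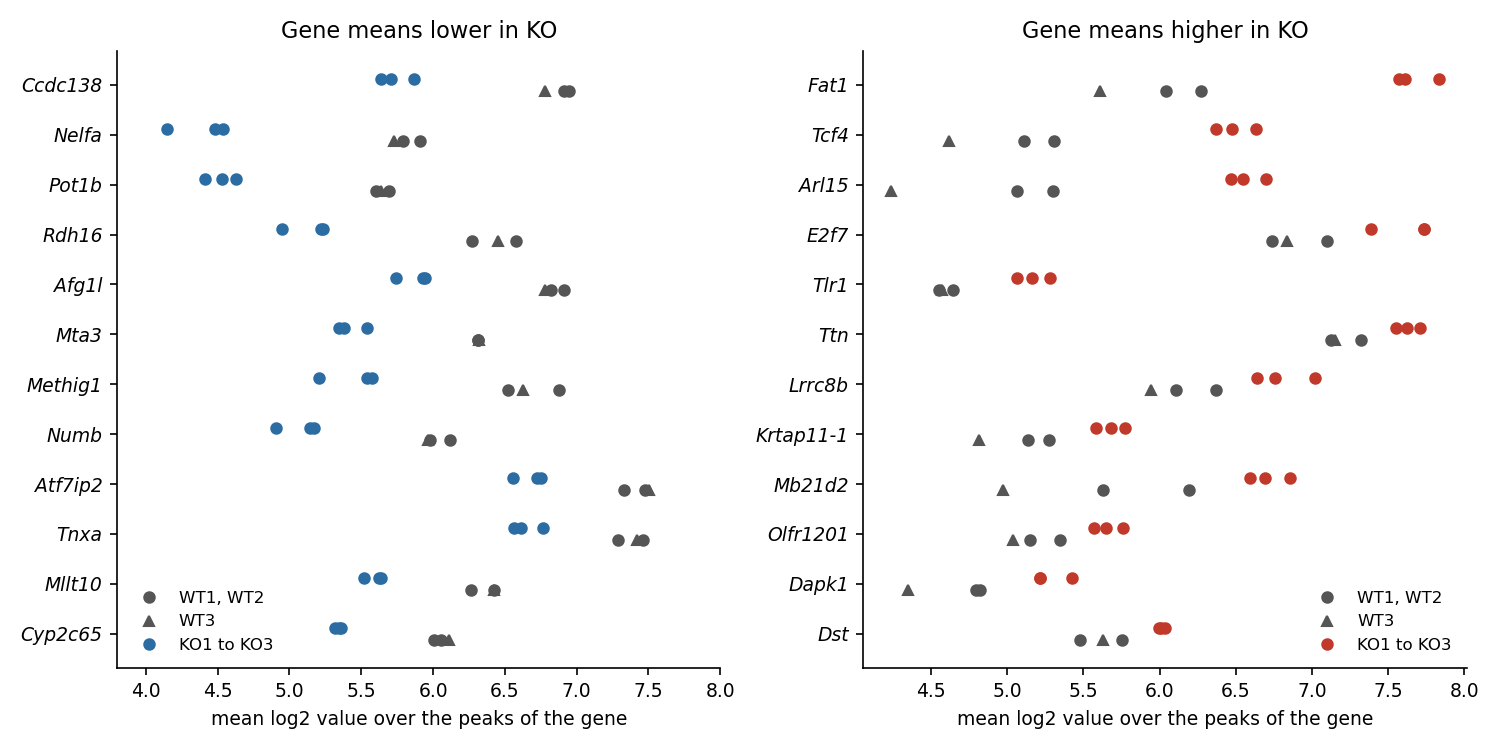
Mean H3K9me3 per gene (log2, x axis) in each WT and KO library for the 12 genes with less and the 12 with more H3K9me3 in KO that the naming rule selected. Every KO point lies left of every WT point for the losses and right of it for the gains; E2f7 has WT values of 6.74 to 7.10 and KO values of 7.39 to 7.74.

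Genes of H3K9 methylation and of linked chromatin factors, among them an HP1 protein, a demethylase and a DNA methyltransferase, were examined in full. Of the 31 listed, 8 had peaks, and 8 of their 14 peaks were lower (57.1%, against 2.46% of all peaks) with a median change of -0.75, and none was higher. Of these 14 peaks, 12 were isolated, with at most 10 neighbours, and 6 of the 12 were lower, beside 16% (4585 of 28745) of all isolated peaks.

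Zfp809, a KRAB zinc finger protein that silences retroviral sequence, had both peaks lower. The larger held 8.15, 8.12 and 8.35 in WT and 6.36, 6.94 and 6.74 in KO, and the smaller 5.06, 5.44 and 4.76 in WT and 3.63, 3.59 and 3.87 in KO. At Setdb2, an H3K9 methyltransferase gene, the values were 6.55, 6.72 and 6.51 in WT and 5.20, 5.58 and 5.80 in KO (limma adjusted p = 6.15e-06). No KO library overlapped WT at these 3 peaks.

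Upstream of Cbx3, which encodes HP1 gamma, a peak fell from 6.67, 6.48 and 6.68 to 5.46, 5.92 and 5.29. Atf7ip, the partner of Setdb1, had 2 of 5 peaks lower, by 0.63 and 0.89. The peak downstream of Fam208a, which encodes the HUSH subunit TASOR, fell by 0.87, while the peak over its start site held 5.47, 5.81 and 5.75 in WT and 4.95, 5.88 and 6.14 in KO and was not called.

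At Dnmt3b, a DNA methyltransferase gene, the called peak held 5.73, 5.18 and 5.27 in WT and 2.25, 4.42 and 5.21 in KO, so KO replicate 3 overlapped WT and the shallow KO replicate 1 was far below. The peaks at Hells, a remodeler gene, and Kdm4d, an H3K9 demethylase gene, did not pass, with changes of -0.19 (SE 0.14) and -0.10 (SE 0.16).

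Detoxification and retinol enzyme genes lost H3K9me3 most often of the larger lists. Of their 371 peaks, 59 were lower (15.9%; 30 of 120 isolated peaks, 25%) and none higher, with a median change of -0.32, and 44 of 124 genes were lower by gene mean (35.5%, against 17% of all genes). Within this list, 12 of 14 Rdh peaks were lower, 8 of 18 at Akr1 aldo-keto reductase genes, 6 of 35 at Cyp2c and 5 of 17 at Cyp4 genes. Without WT replicate 1, 39 of the 371 peaks were lower. Sulfotransferase (Sult) genes held the most peaks, 139, with 4 lower. At Gstz1, a glutathione transferase gene, the called peak held 8.52, 8.41 and 8.34 in WT and 6.64, 7.14 and 7.26 in KO.

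Solute carrier genes had 52 of 542 peaks lower (9.59%) and 1 higher, and 48 of 211 isolated peaks lower (22.7%, against 16%). The peak downstream of Slc15a1, the intestinal peptide transporter, fell from 7.68, 7.43 and 7.71 to 6.59, 6.72 and 6.62. The peak inside Slc22a14 fell by 0.91 (SE 0.12), and a peak inside Slc44a5 rose by 0.98 (SE 0.26). That call was kept without WT replicate 1 or WT replicate 3 and lost without any 1 of the other 4 libraries. Serpin genes had 6 of 65 peaks lower (9.23%, against 2.46% of all peaks), all among their 21 isolated peaks (28.6%, against 16%), with Serpina3m (-0.95) as an example, and none higher. The serpin count was 2 without WT replicate 1 and 3 without WT replicate 2, WT replicate 3 or KO replicate 1.

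Zinc finger genes had 62 of 1069 peaks lower (5.8%, against 2.46% of all peaks) and 3 higher, with a median change of 0.01. Of their 184 isolated peaks, 33 were lower (17.9%), near the 16% of all isolated peaks. Without WT replicate 1 or WT replicate 3, 41 were lower. On chromosome 9, 12 of 31 zinc finger peaks were lower (38.7%), while on chromosome 5 the number was 2 of 198. The peak over Zfp180 on chromosome 7 went from 8.35, 8.29 and 8.49 in WT to 7.07, 7.54 and 7.43 in KO. Gains were called at Zfp64 (0.70), where the genotypes overlapped, and Zfp677 (0.58). Zfp64 did not pass without WT replicate 3 (0.61, limma adjusted p = 0.117). Zfp677 passed without it or KO replicate 3, but not without any 1 of the other 4 libraries. The number of higher zinc finger peaks was 0 without WT replicate 2 or KO replicate 2 and 6 without WT replicate 1.

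Chemosensory receptor genes hold many H3K9me3 peaks in crowded clusters. Olfactory receptor genes had 29 of 2665 peaks lower (1.09%) and 4 higher, and vomeronasal and taste receptor genes 10 of 1287 and 0. Of their isolated peaks, 21 of 142 (14.8%) and 8 of 68 (11.8%) were lower, beside 16% of all isolated peaks. The olfactory count was 19, 19 and 17 without WT replicates 1, 2 and 3, and the vomeronasal count was 4, 3, 5 and 4 without WT replicate 1, WT replicate 3, KO replicate 1 and KO replicate 3. Higher olfactory peaks numbered 0 without WT replicate 1, 1 without KO replicate 1 and 2 without KO replicate 2 or KO replicate 3. The peak over Olfr373 was an exception in size, with 6.23, 5.96 and 6.39 in WT and 4.48, 5.24 and 4.92 in KO. Clustered protocadherin genes had no changed peak among 37. Immunoglobulin and T cell receptor segments had 4 of 762 peaks lower (0.525%, against 2.46% of all peaks), and 2 of their 15 isolated peaks were lower (13.3%).

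Immune genes showed both directions. Innate sensors and interferon-induced genes had 16 of 225 peaks lower (7.11%, against 2.46% of all peaks) and 3 higher (1.33%, against 0.252%). By gene mean, 12 of 47 genes were lower (25.5%, against 17% of all genes), and among isolated peaks 13 of 52 were (25%, against 16%). A peak upstream of Ifitm7, a gene of the interferon-induced transmembrane family, fell from 7.50, 7.50 and 7.28 to 6.62, 6.71 and 6.52. A peak over Nlrp9b, an inflammasome sensor gene, fell by 0.70 (SE 0.10). A peak over Tlr1 rose from 4.80, 4.76 and 4.94 to 5.80, 5.73 and 6.04, and passed without WT replicate 3 as well. A peak over Tlr2 rose by 0.524 (SE 0.125) and did not pass without WT replicate 3 (0.423, limma adjusted p = 0.117). All 3 higher peaks lay at Tlr1 and Tlr2.

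Lectin and natural killer receptor genes had 9 of 126 peaks lower (7.14%, against 2.46% of all peaks; 4 of 10 isolated peaks) and none higher, with Clec2g at 6.63, 6.64 and 6.39 in WT and 4.48, 4.87 and 5.01 in KO. Defensin genes had 3 of 50 lower (6%; 2 of 14 isolated peaks, 14.3%, against 16%), at Defb39 by 0.50 and at Defb40 by 0.68 among them. Keratin-associated protein genes were the list with gains alone, 5 of 45 peaks (11.1%, against 0.252% of all peaks), which all lay at Krtap7-1, Krtap8-1 and Krtap11-1 beside Tiam1. There were 3 without WT replicate 3 and 8 without WT replicate 1.

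Among the 8 crypt epithelial marker genes with peaks, 4 of 22 peaks were lower (18.2%) and 1, at Vil1, higher. All 22 were isolated, and 16% of all isolated peaks were lower, so the share of peaks is near its background. By gene mean, 3 of the 8 crypt marker genes were lower (37.5%, against 17% of all genes). Spink4, a goblet cell gene, fell from 5.63, 5.41 and 5.65 to 4.66, 4.30 and 4.49, and Lgr5, the stem cell marker, by 0.49 at 1 of 3 peaks. The others were at Lyz1 and Mmp7, both Paneth cell genes. Markers of other cells had 1 of 24 peaks lower (4.17%, against 2.46% of all peaks; 1 of 10 isolated peaks), at Pecam1 (-0.71), an endothelial gene. By gene mean, 2 of 7 were lower (28.6%, against 17% of all genes). H3K9me3 gives no cell counts, and a change in the mixture of cells and a change per cell cannot be told apart in these libraries.

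Germline genes had 4 of 58 peaks lower (6.9%) and 1 higher, and all 4 were among their 45 isolated peaks (8.89%, against 16% of all isolated peaks), with Syce3, a synaptonemal complex gene, down by 0.91 and Tdrd6, a germ granule gene, up from 6.78, 6.26 and 6.46 to 7.23, 7.67 and 7.30. Imprinted genes had 5 of 139 lower (3.6%; 5 of 41 isolated peaks, 12.2%), at Slc22a2 by 1.47 and Kcnq1 by 1.00 among them. Developmental transcription factor genes had 6 of 228 lower (2.63%; 6 of 64 isolated peaks, 9.38%) and 1 higher, downstream of Foxa1 (0.84), a gene for an endodermal pioneer factor. The Tdrd6 and Foxa1 peaks also passed without WT replicate 3. The lists were drawn up with earlier results of these data known, and their counts are descriptions beside the background shares. Among the immune, marker, germline, imprinted and transcription factor lists, single libraries moved counts of 9 or fewer: without WT replicate 1, for example, 1 germline and 2 crypt marker peaks were lower, and without WT replicate 3, 1 defensin peak and no peak of other cells.

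H3K9me2, the dimethyl mark measured in 6 further libraries of the same tissue, was tested over 47065 regions. In KO, 1 region (0.00212%) was lower and 0 were higher (edgeR), with 717 lower and 753 higher at an unadjusted p under 0.05, and DESeq2 called 3 lower and 0 higher. None of the 1003 regions over lost H3K9me3 loci was called by edgeR or DESeq2, and 23 were lower and 38 higher at an unadjusted p under 0.05, with a median change of 0.004. None of the 218 regions over gained loci was called by either tool, with 6 lower and 3 higher and a median of -0.012. Over the Grip1 locus, 21 H3K9me2 regions had a median change of -0.11, and the Gm9697 locus held 1 region with -0.32 (edgeR adjusted p = 1.0 for each). A p over the threshold does not show that H3K9me2 was equal there.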

How the data were processed

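H3K9me3 ChIP-seq of small intestinal crypts was available from 3 WT and 3 KO libraries. The authors trimmed reads with Trim Galore 0.4.4, mapped them to GRCm38 with Bowtie2 2.3.2, filtered them on mapping quality, removed duplicates in SeqMonk and called MACS peaks once on all ChIP libraries against both inputs. The deposited H3K9me3 values are log2 read counts per peak, and the authors matched their distributions across the ChIP libraries. The input values of the deposited table are log2 counts without that step. The deposited H3K9me2 signal is the mean read count per MACS peak of a region, and it was multiplied by the number of peaks to give whole reads (largest deviation 0.00114). A short H3K9me2 table deposited by the authors held read counts for 3 peaks and served as a check, since its 24 values lay at or below those of the regions around them. The table of the authors' own edgeR results for H3K9me3 was not used.

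Peaks and gene means were tested with limma 3.58.1 (lmFit, eBayes with trend), genotype as the single term, two-sided, Benjamini-Hochberg over all features, adjusted p under 0.05. Read counts recovered from the ranks of the log2 values (1543 peaks extrapolated in some library) were used for depth and in edgeR 4.0.16 and DESeq2 1.42.0. H3K9me2 regions were tested with the edgeR quasi-likelihood test. R 4.3.3 and Python 3.11.15 were used, and the fits were tested on simulated data.

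Named items were, by rule, the 12 lower and 12 higher genes of smallest p with at least 3 peaks and groups that did not overlap; the 3 lower and 3 higher peaks of smallest p per position class; the 2 per direction and gene list; the 8 loci per direction with most calls; 5 windows and that of Smarcad1; and all peaks of the methylation machinery. Predicted genes were counted and not named, apart from Gm9697, the one gene annotated to a lower peak of the largest lost locus. The members, lists and named items were chosen with earlier results of these data known. Crowding classes, words, subfamilies and the leave-one-out counts of classes, chromosomes, loci and lists were chosen after seeing the data. Gene positions came from the deposited annotation, sequence and masking from GRCm38, and Smarcad1 from RefSeq. Libraries with the same replicate number did not deviate together from their group means (correlations of -0.015, 0.009 and -0.014), so the numbers do not pair them. Other normalizations, tests, filters and thresholds, a replicate block and leaving out each library were tried.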

Additional observations from a re-analysis of the deposited data

Results flagged for a closer look

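The KO input, which enters no test between genotypes, exceeded the WT input at the Vil1 peak by 11.6-fold and at the Mt1 peak by 7.89-fold, each as a share of the reads in peaks. Among the 162324 peaks with at least 20 reads in 1 of the inputs, 40 had over 4-fold more in KO and 55 over 4-fold more in WT. Only these 2 of the 40 had at least 100 KO reads, and they were also the 2 of the 40 called higher in the ChIP. The H3K9me3 table has a single input library per genotype, so animal and genotype cannot be told apart in it, and the H3K9me2 inputs were not compared at these peaks.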

How the results depend on the processing

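More peaks were lower than higher under every alternative run. The numbers of lower and higher peaks (5226 and 536 as reported) were 87 and 16 with limma without trend, 2271 and 126 with DESeq2 on recovered counts, 3363 and 257 at the 0.01 threshold, and 1450 and 188 for changes of 1 or more on the log2 scale. Leaving out 1 library gave 3242 to 4863 lower and 352 to 535 higher peaks. For gene means (2413 and 69) they were 2028 and 1412 with edgeR, 1126 and 758 with DESeq2, 736 and 12 at the 0.01 threshold, 434 and 15 for changes of 1 or more, and 1550 lower with peaks overlapping the gene alone. Leaving out 1 library gave 1127 to 2021 and 33 to 59. Loci (3686 and 303) numbered 83 and 8 with limma without trend, 1776 and 41 with DESeq2, 82 higher at the 0.01 threshold, 1239 and 80 for changes of 1 or more, and 2230 lower with a gap of 200 kb. Leaving out 1 library gave 2449 to 3476 and 166 to 290. Chromosomes with all KO means below or above WT (2 and 3) numbered 8 and 0 on CPM from recovered counts, and 3 to 6 and 4 to 5 when 1 library was left out, with 6 below without WT replicate 2. The cause of these shifts was not tested, apart from the stricter thresholds and the smaller number of libraries.

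With the replicate number as a block, although the numbers did not pair the libraries, there were 5218 lower and 534 higher peaks and 1548 lower and 31 higher gene means. The KO minus WT change of the gap between overlapping peaks and peaks with no gene stayed at -0.026 under the pairing. It was -0.0129 to -0.032 when 1 library was left out.

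H3K9me2 regions at least 50% covered by gained loci changed by -0.0945. Leaving out 1 library gave medians of -0.0219 to 0.0205 over lost and -0.0233 to 0.0071 over gained loci. The uncalled Atf7ip peak on chromosome 6 from 136512601 (-0.15) ranged from -0.283 to 0.012 when 1 library was left out, the latter without KO replicate 1. The uncalled Fam208a peak on chromosome 14 from 27427201 (-0.02) was at 0.124 with edgeR and 0.094 with DESeq2. When 1 library was left out it ranged from -0.257 to 0.335, above 0 without WT replicate 2, WT replicate 3 or KO replicate 1. Over 94 named genes and peaks, 995 of 1157 values under an alternative kept direction and side of the threshold, 156 kept the direction and lost the call, and 6 turned. With limma without trend, 56 of the 94 lost their call. The 94 also hold peaks that were not called to begin with. Peaks on X and peaks with few reads limit what can be detected there.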
